A study of Mus musculus with 96 samples.

Results

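The numbered Zfp genes are the mouse genes whose symbol is Zfp followed by a number, most of which encode zinc finger proteins. Of the 24057 genes listed, 366 carried such a symbol, and 217 of these had a TPM value (transcripts scaled to a fixed total per cell and to gene length) above 0 in 10 or more of the 95 cells kept; these 217 are the members described here. Of the others, 64 had a value above 0 in 1 to 9 cells and 85 were at 0 in every cell. The 10 members just inside the limit, among them Zfp169, Zfp341 and Zfp608, were each detected in 10 cells, and Zfp7 and Zfp85, just outside it, in 9. Because a gene that is high in 1 condition passes this limit more easily, the counts and medians over the 217 members are descriptions only.

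The cells were EL4 cells, a T-lymphoma line labelled C57BL/6 (C57BL/6 N in the study's methods), sequenced one by one to ask how the loss of CTCF, an insulator and loop-forming DNA-binding protein, changes expression and cell-to-cell variation. WT cells carried a short hairpin RNA against luciferase (shLuc) and were labelled wild type, although they were infected and sorted in the same way as the CTCF-KD cells, which carried a hairpin against Ctcf (shCTCF); both hairpins came with GFP from a retroviral vector, and GFP-positive cells were used. Knockdown was done a first time, with the cultures numbered #1 (experiment 1), and again with those numbered #2 (experiment 2). The cultures gave 24 cells (shLuc #1), 23 (shLuc #2), 24 (shCTCF #1) and 24 (shCTCF #2), and every set of 4 values below keeps this order. A culture is the replicate, so each condition has 2, and each had a C1 capture circuit to itself, so that inside an experiment the circuit and the hairpin cannot be told apart.

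Reads per cell had medians of 247586, 230477, 234260 and 131098, and genes detected per cell had medians of 4771, 4635, 6172.5 and 5656. Of 9 T cell markers, 7 were detected in 85 or more cells, while 4 of 5 B cell markers, 3 of 5 myeloid markers and both erythroid markers were at 0 in every cell. Ctcf itself had culture means of 60.3, 37.1, 15.96 and 44.9 TPM. The culture labelled shCTCF #2 was thus not lower in Ctcf than shLuc #2 among these cells. Directions below may rest on that culture, and each experiment's own difference is given for only some of them. The study also measured knockdown in sorted cells by RT-qPCR and Western blotting, which are not analysed here. Its methods list 2 hairpins against Ctcf; if the culture numbers follow them, hairpin and experiment cannot be told apart in the shCTCF cultures.

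A classical zinc finger of the C2H2 kind is a short loop in which a pair of cysteines and a pair of histidines hold a zinc ion, and rows of such fingers read DNA bases. Many mouse members also carry a KRAB domain, which binds the corepressor TRIM28 (KAP1), and TRIM28 brings in the histone methyltransferase SETDB1 and silences genes and retroelements. A smaller set of Zfp symbols belongs to proteins that bind RNA, such as the CCCH proteins Zfp36, Zfp36l1 and Zfp36l2, which bind AU-rich messages and promote their decay. Such genes are often expressed at low levels and lie in dense clusters.

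To show what a finger of this kind looks like, the coding bases of the first C2H2 pattern lying within an exon are given for 4 members on which the comparison of expression turns, Zfp653 and Zfp263, lower in CTCF-KD cells, and Zfp566 and Zfp637, higher in them. They were read from GENCODE M21 transcripts on GRCm38. Capitals mark the codons of the paired cysteines and histidines. The stretches lie at chr9:22056418-22056486 on the minus strand, chr16:3748960-3749022 on the plus strand, chr7:30078188-30078250 on the minus strand and chr6:117845186-117845248 on the plus strand, all in coding exons.
Zfp653: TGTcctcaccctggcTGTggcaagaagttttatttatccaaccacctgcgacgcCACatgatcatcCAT
Zfp263: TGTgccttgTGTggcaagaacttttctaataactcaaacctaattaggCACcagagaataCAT
Zfp566: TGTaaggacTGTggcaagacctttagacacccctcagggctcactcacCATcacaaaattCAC
Zfp637: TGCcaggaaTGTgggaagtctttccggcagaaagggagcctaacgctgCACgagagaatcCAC
In 216 members with a coding sequence in the annotation, the number of C2H2 patterns had a median of 9 and reached 36 in Zfp142. There were 8 members with none, including Zfp36, Zfp36l1 and Zfp36l2, and a KRAB A-box pattern was found in 55.

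The members were low and patchy in single cells. The median member was detected in 29 of 95 cells, against 50 cells for the median of all 9602 genes detected in 10 or more cells, and had a mean of 11.3 TPM over the cultures, against 26.2 TPM. No more than 9 members were detected in 85 or more cells. A mean under 10 TPM was found for 95 members and a mean of 50 TPM or more for 18, and the 8 members with the highest mean made up 24.6% of the summed level.

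The highest level belonged to Zfp207, which encodes a microtubule-binding spindle assembly protein. Its culture means were 236, 302, 211 and 449 TPM, with SDs over cells of 199.8, 377, 127 and 671 TPM, and it was detected in 23, 21, 24 and 24 cells. Zfp512b followed with 129, 147, 203 and 360 TPM, and Zfp706 with 106, 93.4, 141 and 152 TPM. Zfp263, a transcriptional repressor, had 157, 140, 71.3 and 76.3 TPM. The cultures of the 2 conditions did not overlap for Zfp512b, Zfp706 and Zfp263, and did for Zfp207. The share of all genes whose culture means do not overlap between conditions is not given, here or below. With 2 cultures against 2, such a separation has a two-sided p of 0.333 by exact permutation.

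Zfp637, next by level, had 91.8, 36.98, 158 and 142 TPM. Zfp655 had 67.2, 152, 49.5 and 155 TPM, and Zfp317 had 73.4, 158, 38.94 and 112 TPM. In both of these the #2 culture was the higher of each condition. Zfp330, a nucleolar protein, had 49.4, 116, 111 and 101 TPM, and its conditions overlapped.

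No member differed in expression between CTCF-KD and WT cells at an adjusted p under 0.05. Culture means were compared on the scale log2(mean TPM + 1) by limma with Benjamini-Hochberg adjustment over 11980 genes, of which 0% were called higher and 0% lower. The smallest adjusted p of a member was 0.585, for Zfp653. Without adjustment, 8 members were higher and 5 lower at p under 0.05, or 3.69% and 2.30% of the members, against 4.79% and 2.82% of all genes tested. With the culture labelled shCTCF #2 left out, these counts were 1 and 0, and with the experiment as a block in the fit they were 9 and 8. The median log2 difference of the members, CTCF-KD minus WT, was -0.12, against 0.04 over all genes, with 102 members above 0 and 115 below. It was 0.11 in experiment 1 and -0.24 in experiment 2, and 113 members, or 52.1%, had the same sign in both experiments, against 56.8% of all genes. When the log was taken in each cell before averaging, the median was 0.24 for the members and 0.23 for all genes, so the direction of the median depended on the scale.

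The members with the lowest statistics were Zfp653, Zfp263, Zfp692, Zfp532 and Zfp408. Zfp653, on chromosome 9 from 22055411 to 22071376, had culture means of 18.7, 16.8, 0.99 and 1.13 TPM and was detected in 8, 3, 2 and 1 cells. Its log2 difference was -3.18 (standard error 0.85, adjusted p = 0.585 from limma). Both WT means lay above both CTCF-KD means, but the CTCF-KD means rested on 6 and 1 reads in all. Zfp263, on chromosome 16 from 3744093 to 3750790, was detected in 21, 18, 17 and 18 cells, and its log2 difference was -1.001 (standard error 0.36, adjusted p = 0.610 from limma). The experiments gave -1.13 and -0.87. It is the member of this set seen in most cells.

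Zfp692, which encodes a DNA-binding protein, had 78.8, 54.1, 24.9 and 23.9 TPM, detected in 15, 9, 15 and 10 cells. Its log2 difference was -1.38, while its share of cells was not lower. Zfp532 had 25.8, 15.4, 3.85 and 3.76 TPM, detected in 10, 8, 10 and 5 cells, with a log2 difference of -2.12. Zfp408 had 8.50, 13.3, 1.79 and 1.62 TPM, detected in 4, 8, 4 and 3 cells, with a log2 difference of -2.11. In these 3 genes the conditions did not overlap, with adjusted p between 0.610 and 0.646 from limma.

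Against the members' median difference of -0.12, 6 genes were higher in both CTCF-KD cultures than in both WT cultures, with the lowest unadjusted p of the kind by limma. That median was 0.11 in experiment 1 and 0.24 with the log taken in each cell, where these genes had the same sign as it. Zfp566, Zfp365 and Zfp1 would not have reached the member limit on their WT cells alone. Zfp566, a KRAB gene on chromosome 7 from 30077337 to 30090527, had 5.92, 0.35, 28.1 and 24.5 TPM, and was detected in 1, 1, 9 and 8 cells. Its log2 difference was 3.16 (standard error 1.06, adjusted p = 0.610 from limma), and each WT mean came from a single cell. Zfp637, on chromosome 6 from 117841180 to 117845956, was detected in 10, 10, 20 and 17 cells, and its log2 difference was 1.35 (standard error 0.51, adjusted p = 0.625 from limma). The experiments gave 0.78 and 1.91. It had the highest level of the 6.

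Zfp639 had 8.65, 0.64, 40.4 and 21.6 TPM in 8, 3, 19 and 11 cells. Zfp365, whose product is known from centrosomes and genome stability, had 0.35, 3.11, 12.7 and 14.96 TPM in 3, 3, 11 and 9 cells. Zfp64, a regulator of the MLL gene in leukaemia, had 17.9, 7.61, 34.5 and 61.7 TPM in 9, 4, 12 and 13 cells. Together with Zfp1, a KRAB gene with 4.27, 21.7, 43.04 and 49.5 TPM in 5, 4, 14 and 11 cells, they had log2 differences of 2.94, 2.65, 1.88 and 2.11. The adjusted p of limma ran from 0.610 to 0.636 in the 4. The other members at an unadjusted p under 0.05 and higher in CTCF-KD cells were Zfp512b and Zfp868, with log2 differences of 0.97 and 2.62.

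**Figure D1:**
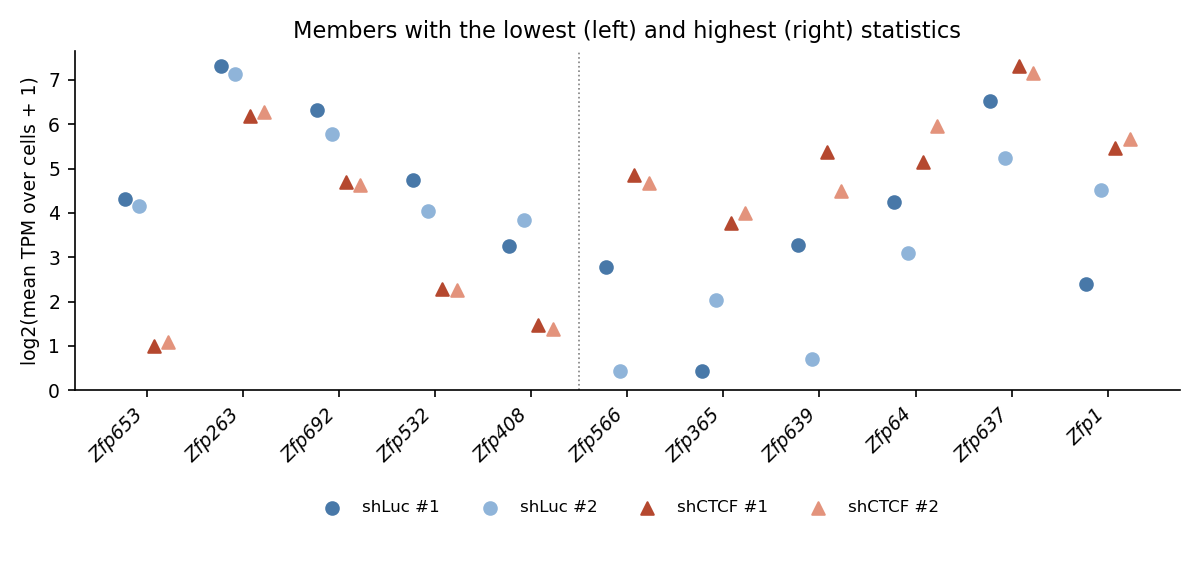
Mean level of 11 members in each culture, as log2(mean TPM over cells + 1) on the vertical axis, with circles for the shLuc cultures and triangles for the shCTCF cultures. To the left of the dotted line are the 5 members with the lowest limma statistics, from Zfp653 (18.7, 16.8, 0.99 and 1.13 TPM) to Zfp408, and to the right the 6 against the members' median, from Zfp566 (5.92, 0.35, 28.1 and 24.5 TPM) to Zfp1; in each gene the circles and triangles do not overlap.

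Most members, like most genes, were found in a larger share of CTCF-KD cells. A cell held reads of 68.5, 66, 94 and 82.5 members in the median. The share of cells with TPM above 0 had a median difference of 7.79 percentage points over the members, against 8.24 over the 9602 genes detected in 10 or more cells. It was 8.33 points in experiment 1 and 6.88 in experiment 2. The share was higher in CTCF-KD cells for 171 members, or 78.8%, against 74.7% of those genes.

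In 75 members, or 34.6%, both CTCF-KD cultures lay above both WT cultures, against 41.1% of all genes, and in 17, or 7.83%, both lay below, against 4.92%. With the culture labelled shCTCF #2 left out, 136 members lay above both WT cultures and 26 below, against 63.1% and 8.72% of all genes. By limma on the arcsine square root of the shares, no member passed an adjusted p of 0.05, against 0.625% of genes called higher and 0.156% called lower; at an unadjusted p under 0.05, 22 members (10.1%) were higher and 2 (0.922%) lower, against 17.5% and 0.864% of genes. The smallest adjusted p was 0.171, for Zfp566. Within cultures the number of members detected followed the number of genes detected over cells, with Pearson's r of 0.89, 0.92, 0.93 and 0.91, points that share the depth of the cell. Members made up 1.42%, 1.49%, 1.54% and 1.49% of the genes detected in the median cell. When every cell was thinned to 80000 reads, leaving out 1 cell, the median cell held 57, 58, 75.5 and 74 members and 4164, 4005, 5232.5 and 5222 genes.

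The members with the largest higher shares were Zfp239, Zfp639, Zfp593 and Zfp637. Zfp239 was detected in 2, 5, 16 and 12 cells, while its mean of 8.40, 18.8, 11.98 and 17.3 TPM overlapped between conditions. Zfp593, a factor of ribosome biogenesis, was detected in 10, 7, 21 and 15 cells, with 10.6, 30.1, 38.7 and 19.4 TPM. These 2 genes were seen in more cells at means that overlapped. More widely, 75 members, or 34.6%, had a lower mean and a larger share of cells in CTCF-KD cells, against 27.7% of genes. Among cells with reads the members' mean TPM had a median log2 ratio of -0.41, against -0.24 over all genes.

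Against this direction stood Zfp395, Zfp715, Zfp219 and Zfp800. Zfp395 was detected in 11, 14, 6 and 6 cells, at 15.4, 12.1, 2.60 and 4.03 TPM. Zfp715, a KRAB gene, was detected in 9, 7, 4 and 1 cells, at 15.99, 4.15, 0.86 and 2.80 TPM. Zfp219 was detected in 7, 7, 5 and 0 cells, where 0 of 24 allows a share of up to 12.5%. Zfp800 was detected in 22, 19, 17 and 16 cells, at 19.5, 48.7, 10.4 and 27.1 TPM. Of these, Zfp395 had the largest difference, -28.4 percentage points, CTCF-KD minus WT (unadjusted p = 0.021 from limma).

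**Figure D2:**
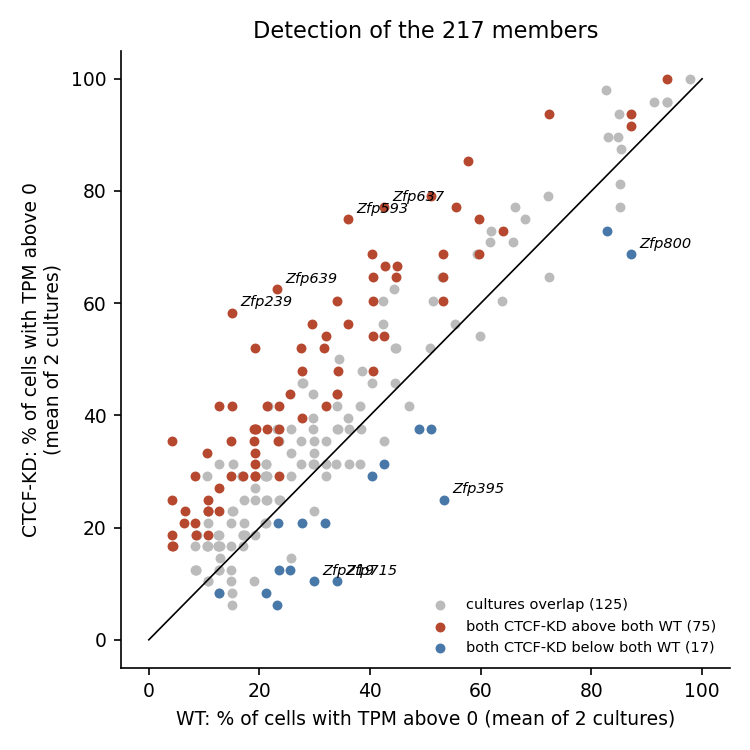
Percentage of cells with TPM above 0 for each of the 217 members, WT on the horizontal axis and CTCF-KD on the vertical axis, each the mean of 2 cultures; the line marks equal shares. Most points (171 of 217) lie above the line; red marks the 75 members whose CTCF-KD cultures both lie above both WT cultures and blue the 17 below, with the 8 largest differences named.

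Cell-to-cell variation was measured as the coefficient of variation (CV) of log2(TPM + 1) among all cells that share a condition, in the 7843 genes with a mean above 1, of which 133 were members. A gene counted as increased or decreased when its CV difference was over 1 SD away from the mean of such differences. By this rule 11 members, or 8.27%, increased, against 7.68% of all genes, and 22, or 16.5%, decreased, against 11.3%. The members' CV had a median of 1.496 among WT and 1.19 among CTCF-KD cells, the median difference was -0.26 against -0.22 over all genes, and 116 members, or 87.2%, had the lower CV in CTCF-KD cells, against 81.5% of genes. All 11 increased members were detected in a smaller share of CTCF-KD cells and all 22 decreased members in a larger share, as were 99.8% and 100% of the genes called in each direction.

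When the CV expected from a gene's mean was subtracted, 20 members increased and 18 decreased, or 15.04% and 13.5%, against 8.59% and 7.32% of genes. Only 3 of the 11 and 7 of the 22 members were called in the same direction by both measures. By limma on the CV of each culture, over 7823 genes, 1 member passed an adjusted p of 0.05, with a lower CV, and none with a higher CV, against 4.14% and 0.0639% of genes; at an unadjusted p under 0.05 they were 17 (12.8%) and 1 (0.752%), against 27.2% and 0.601% of genes. The 1 member was Zfp512b, whose CV was 0.93, 0.70, 0.26 and 0.33 (adjusted p = 0.043 from limma) and which was detected in 17, 17, 23 and 22 cells. With the experiment as a block in the fit, 11 members (8.27%) passed with a lower CV and none with a higher one, against 19.9% and 0.307% of genes.

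The increased members called in each experiment alone were Zfp395 and Zfp41. The CV of Zfp395 was 1.25, 0.98, 2.08 and 1.91 by culture. Zfp41, at 9.93, 29.7, 9.53 and 13.5 TPM, had a CV of 1.80, 1.95, 1.98 and 2.30. Of the 6 decreased members called in each experiment alone, the largest differences were in Zfp566, Zfp365, Zfp239 and Zfp1. None of these genes would have reached the member limit on its WT cells alone. The share of all genes called in each experiment alone, in either direction, is not given. The CV of Zfp566 was 4.90, 4.80, 1.37 and 1.49, the WT values coming from 1 cell with reads in each culture. That of Zfp239 was 3.66, 2.13, 0.93 and 1.14, and that of Zfp1 was 2.31, 2.37, 1.07 and 1.23.

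**Figure D3:**
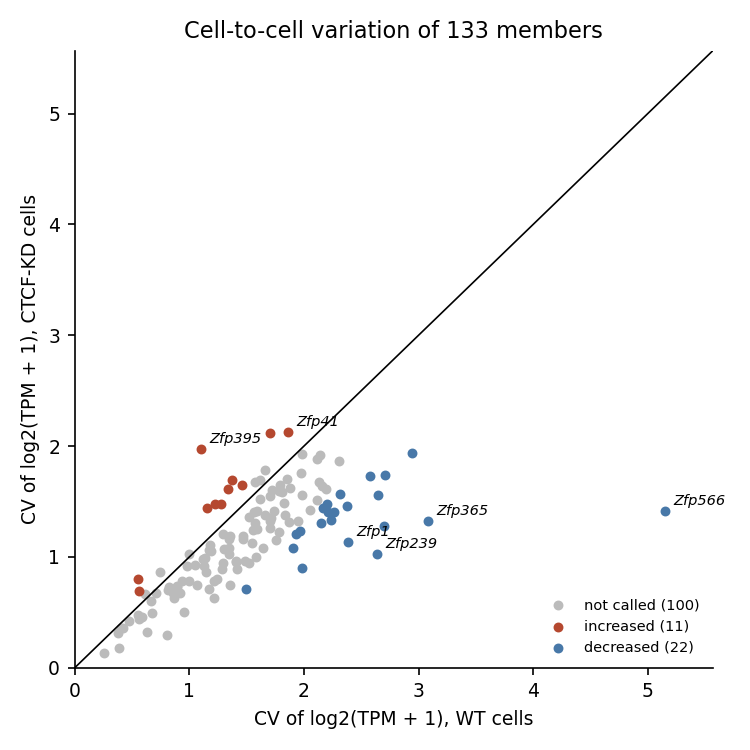
CV of log2(TPM + 1) over WT cells (horizontal axis) and CTCF-KD cells (vertical axis) for the 133 members used; the line marks equal CVs. The 11 increased members (red) lie above the line, the 22 decreased members (blue) below it, and the 6 members called in the same direction in each experiment alone with the largest differences are named.

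The summed level of the members was higher in experiment 2 than in experiment 1, in both conditions. The sum over the 217 members in a cell ran from 1817 to 4891 TPM in shLuc #1 (median 3623) and from 3982 to 10369 TPM in shLuc #2 (median 5844). It ran from 2539 to 4683 TPM in shCTCF #1 (median 3847) and from 2879 to 11151 TPM in shCTCF #2 (median 5451). The culture means were 3557 ± 800.0, 6039 ± 1454, 3673 ± 715 and 5367 ± 1718 TPM (SD over 24, 23, 24 and 24 cells). In shLuc #2, 20 of 23 cells lay above the highest cell of shLuc #1, and in shCTCF #2, 14 of 24 lay above the highest of shCTCF #1. The median cell of experiment 2 was 1.61 times that of experiment 1 for shLuc and 1.42 times for shCTCF, while shCTCF stood at 1.06 and 0.93 times shLuc within experiments 1 and 2. These sums were not tested, since with 2 cultures on each side the smallest two-sided p of an exact permutation test is 0.333.

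**Figure D4:**
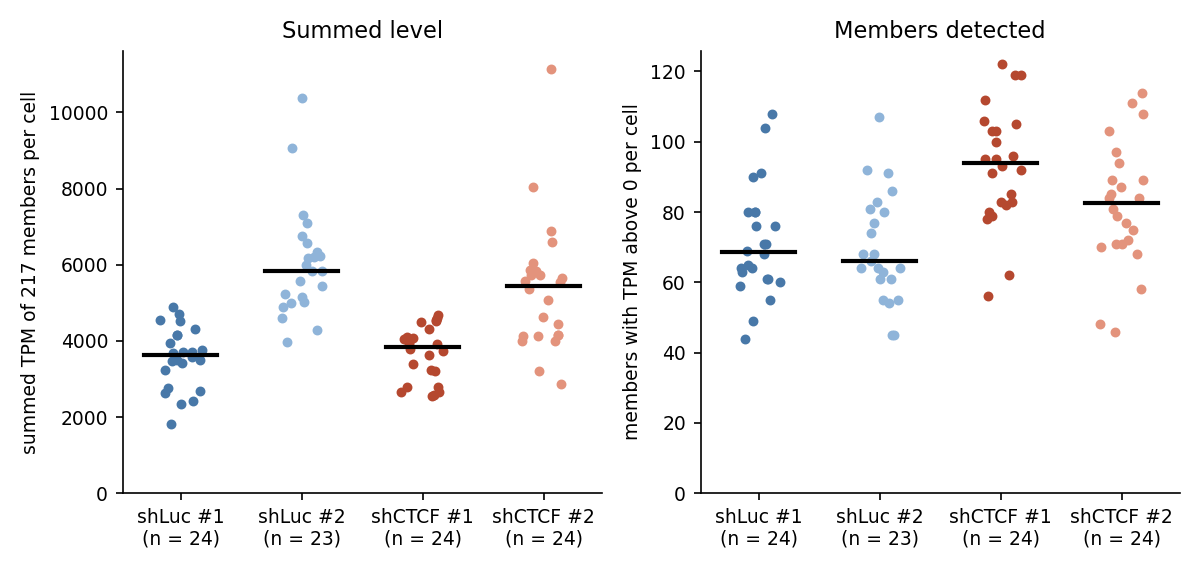
Each point is a cell, by culture, and the black bars are medians. Left, the summed TPM of the 217 members, higher in the #2 cultures (medians 5844 and 5451) than in the #1 cultures (3623 and 3847); right, the number of members with TPM above 0, higher in the shCTCF cultures (94 and 82.5) than in the shLuc cultures (68.5 and 66).

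Reads gave the same order without any scaling by length. Members took 0.671%, 1.04%, 0.683% and 0.935% of the reads of a culture. Leaving out the 8 members with the highest mean, the ratios of median sums were 1.81 for shLuc and 1.34 for shCTCF. The number of members detected per cell was not higher in experiment 2. Reads per cell, the number of genes detected and the circuit also differed between the experiments, and their part in this difference was not tested.

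The experiment was then compared over all genes by limma with condition as a second term, a comparison chosen after the sums had been seen. No member passed an adjusted p of 0.05 in either direction, against 0% of genes higher and 0.00835% lower, and the smallest adjusted p of a member was 0.207. At an unadjusted p under 0.05, 28 members (12.9%) were higher in experiment 2 and 2 (0.922%) lower, against 8.53% and 4.37% of genes. In 80 members, or 36.9%, both cultures of experiment 2 lay above both of experiment 1, against 25.6% of genes, and in 18, or 8.29%, both lay below, against 13.5%. The median log2 difference, experiment 2 minus 1, was 0.57 for the members and 0.20 for all genes, 0.75 and 0.19 between the shLuc cultures and 0.45 and 0.16 between the shCTCF cultures. With the log taken in each cell it was 0.11 and 0.01.

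The 5 members with the largest statistics among those not overlapping were Zfp51, Zfp281, Zfp655, Zfp266 and Zfp180. Zfp281, which binds GC-rich promoters and is known from pluripotent cells, had 4.56, 56.9, 11.6 and 67.03 TPM and was detected in 12, 13, 18 and 15 cells. Its highest cell reached 20.9, 463, 42.01 and 1209 TPM, so the number of cells was alike and the level in the highest cells was not. Zfp51 had 6.33, 61.4, 8.66 and 59.9 TPM in 7, 8, 10 and 10 cells. Zfp266 had 28.7, 114, 44.05 and 112 TPM in 20, 19, 23 and 20 cells, and Zfp180 had 5.38, 58.1, 1.32 and 25.02 TPM in 7, 7, 5 and 12 cells. The log2 differences ran from 1.39 in Zfp655 to 3.35 in Zfp180, with adjusted p from 0.207 to 0.225 by limma. The 2 members lower in experiment 2 were Zfp691, with 32.4, 10.98, 61.6 and 4.27 TPM, and Zfp777, with 17.9, 0.28, 17.7 and 5.77 TPM.

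**Figure D5:**
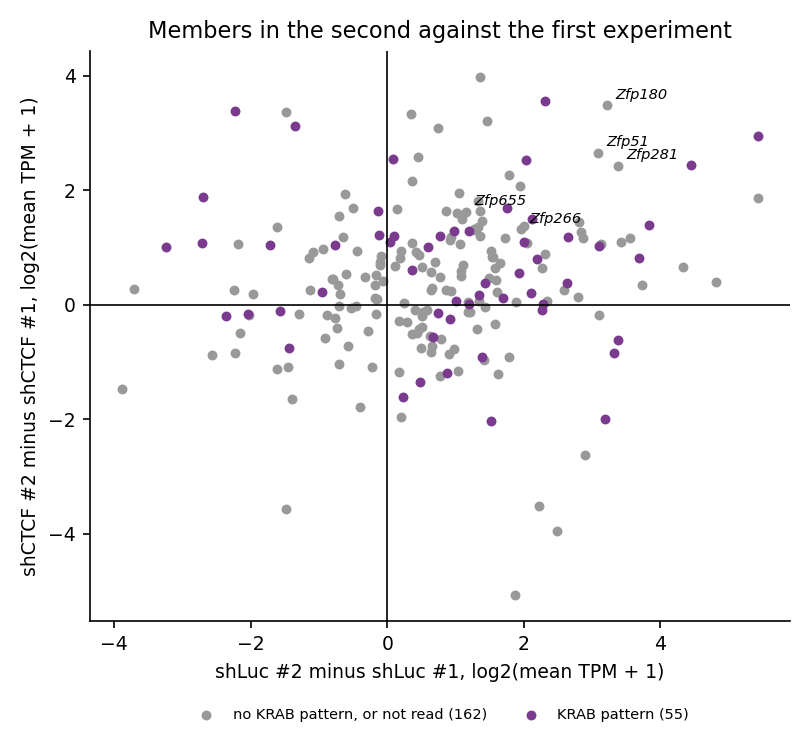
Difference between the experiments for each of the 217 members on the scale log2(mean TPM + 1), shLuc #2 minus shLuc #1 on the horizontal axis and shCTCF #2 minus shCTCF #1 on the vertical axis, purple where a KRAB pattern was found. Of the members, 150 lie right of 0 and 144 above 0, and the 5 named have the largest statistics among those higher in both.

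Level and the difference between experiments were also set beside protein structure. Across 216 members, which share their libraries, the number of C2H2 patterns had a Spearman's rho of -0.28 with the mean TPM, 0.21 with the difference between experiments and -0.10 with the difference between conditions. The 55 members with a KRAB pattern summed to 471, 1210, 490 and 743 TPM, and the 161 without to 3073, 4805, 3179 and 4615 TPM. The pattern is strict, so members without it may still carry a KRAB domain. Between the shLuc cultures the sum was 2.57 times higher in experiment 2 with a KRAB pattern and 1.56 times without. Between the shCTCF cultures it was 1.52 and 1.45 times. The median difference between conditions was -0.20 with a KRAB pattern and 0.01 without. It was 0.11 and 0.13 in experiment 1, and -0.44 and -0.20 in experiment 2. With the log taken in each cell it was 0.21 and 0.24, so its direction depended on the experiment and the scale. At an unadjusted p under 0.05 of limma, 2 of the 55 KRAB members were higher and 0 lower, against 4.79% and 2.82% of all genes tested.

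By number of patterns, the median difference between experiments was 0.08 for the 49 members with 1 to 5, 0.60 for the 71 with 6 to 10, 0.83 for the 52 with 11 to 15 and 0.58 for the 36 with 16 or more. The 8 members without a pattern had 0.46. In every culture the members with 1 to 5 patterns had the largest sum, 1383, 1856, 1494 and 1941 TPM. Those with 6 to 10 had 1015, 1620, 1161 and 1699 TPM and those with 11 to 15 had 704, 1695, 553 and 1022 TPM, the latter higher only in shLuc #2.

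The members were concentrated on a few chromosomes, with 54 on chromosome 7, 29 on chromosome 17, 16 on chromosome 13 and 15 on chromosome 8. Linking neighbours that start within 500000 bp gave 13 clusters of 4 or more members, which held 86. Because the authors kept uniquely mapped reads only, members with near-identical neighbours in a cluster may be undercounted. The median difference between experiments was above 0 in 11 of the 13 clusters, and that of all genes was also above 0, at 0.20. The cluster of 13 members from Zfp160 to Zfp213 on chromosome 17 summed to 128, 567, 104 and 228 TPM. It includes Zfp51, Zfp53, Zfp54 and Zfp942, and 4 of its 13 members were higher in experiment 2 at an unadjusted p under 0.05, against 8.53% of all genes. Zfp54 there had 0, 41.9, 3.86 and 36.4 TPM and was detected in 0, 4, 3 and 6 cells, where 0 of 24 again allows a share of up to 12.5%. The cluster of 11 from Zfp84 to Zfp146 on chromosome 7, which holds Zfp566, summed to 161, 167, 143 and 157 TPM and was near level across the cultures.

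By role, 5 lists of members were described. The mRNA decay proteins Zfp36, Zfp36l1 and Zfp36l2 had 89.7, 84.1, 45.6 and 83.2 TPM, 43.6, 38.7, 29.7 and 26.6 TPM, and 15.8, 46.96, 20.5 and 40.2 TPM. For Zfp36, by a narrow margin, and for Zfp36l1 both CTCF-KD means lay below both WT means, and for Zfp36l2 the conditions overlapped. None of the 3 passed an unadjusted p of 0.05.

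Of 11 RNA, ribosome and spindle factors, 10 had a log2 difference above 0, against 52.1% of all genes tested, none passed an unadjusted p of 0.05, and their median was 0.47. In 5 of them both CTCF-KD shares of cells lay above both WT shares, or 45.5%, near the 41.1% of all genes. Zfp326, a factor linking splicing and transcript elongation, had 16.1, 22.5, 52.3 and 38.6 TPM in 14, 17, 20 and 17 cells. Zfp598, a ubiquitin ligase at collided ribosomes, had 2.89, 5.65, 7.77 and 2.70 TPM in 5, 2, 11 and 6 cells. Zfp638, which takes part in silencing unintegrated retroviral DNA, was the exception, with 14.6, 50.6, 12.1 and 28.6 TPM in 18, 22, 23 and 19 cells.

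Of 14 chromatin and promoter factors, 6 had a log2 difference above 0 and 8 below, and Zfp263 alone passed an unadjusted p of 0.05. Zfp143, which is found with CTCF at promoters and loop anchors, had 19.3, 37.2, 46.5 and 25.1 TPM in 11, 6, 13 and 14 cells, and its means overlapped. Zfp91, a ubiquitin ligase of the non-canonical NF-kB pathway, had 54.7, 78.1, 28.4 and 45.7 TPM in 22, 22, 22 and 24 cells. Zfp335, needed in T cell development, had 38.99, 7.49, 15.3 and 18.6 TPM in 14, 7, 16 and 14 cells. Zfp410, an activator of Chd4, had 28.5, 57.4, 30.4 and 17.5 TPM in 16, 14, 17 and 12 cells. The conditions did not overlap for Zfp91, with the CTCF-KD means lower, and overlapped for the other 3.

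The 5 imprint and retroelement KRAB proteins detected were Zfp445, Zfp809, Zfp932, Zfp961 and Zfp568, and none passed an unadjusted p of 0.05 between conditions. Zfp809, which recognises proviruses at their primer binding site, had 8.39, 57.5, 37.3 and 48.6 TPM in 8, 12, 18 and 14 cells. Zfp445, which maintains genomic imprints, had 28.8, 37.5, 15.5 and 24.03 TPM in 19, 15, 20 and 18 cells, with both CTCF-KD means below both WT means. The list summed to 52.7, 183, 71.4 and 128 TPM. The 2 lymphoid factors detected, Zfp318 and Zfp35, summed to 8.29, 31.4, 13.8 and 16.2 TPM.

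The partners of the KRAB proteins, which are not members, were all detected, 21 of 21. At an unadjusted p under 0.05 of limma, Suv39h1, a histone methyltransferase, was higher at 81.03, 55.2, 118 and 155 TPM. Atf7ip, a cofactor of SETDB1, was lower at 66.8, 44.7, 22.7 and 8.68 TPM. Neither passed after adjustment. Trim28 had 64.8, 108, 128 and 104 TPM and Setdb1 14.02, 72.6, 16.1 and 46.7 TPM, and both overlapped between conditions. Between experiments the median log2 difference of the partners was close to that of the members, 0.56 against 0.57. Their sums were 1026, 1616, 1129 and 1787 TPM, with experiment 2 at 1.58 times experiment 1 in each condition. In 11 of 21 (52.4%) both cultures of experiment 2 lay above both of experiment 1, against 36.9% of members and 25.6% of all genes tested. Other families of zinc finger symbols are given for comparison, with the median log2 difference between experiments. The 28 Zbtb genes summed to 380, 415, 369 and 406 TPM, with a median of 0.35, and the 10 Zkscan and Zscan genes to 275, 244, 123 and 204 TPM, with 0.08. The 11 Zc3h genes, with a CCCH finger, summed to 362, 527, 242 and 407 TPM, with 0.52. No test of the families against each other was made.

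Promoters were searched because CTCF was the protein targeted. RefSeq promoters, from 250 before to 50 after a gene's start, were found for 177 members in the GRCm38.p6 table. The letters CNAGNGGGC, a core of the CTCF motif, were present on either strand in 6.33% of the members' promoters, against 7.03% of all promoters in the table and 11.3% of the promoters of genes that, like the members, were detected in 10 or more cells. CCCAGNATG, a core of the Zfp143 motif, was present in 3.17%, against 2.04% of all promoters and 2.44% of those of detected genes. No member's promoter held both, and each match is a description of letters, not of binding. The stretch around the CTCF-type match is shown for 3 members described above, Zfp281, higher in experiment 2, Zfp566, higher in CTCF-KD cells, and Zfp408, lower in them. Capitals mark the match, which begins 57, 66 and 176 bases before the start that RefSeq gives, on the opposite strand in Zfp281, and 45 bases are shown on each side. The stretches lie upstream of that start at chr1:136624799-136624897 on the plus strand, chr7:30090523-30090621 on the minus strand and chr2:91649914-91650012 on the minus strand; the GENCODE gene of Zfp566 starts further upstream and overlaps the edge of its stretch.
Zfp281: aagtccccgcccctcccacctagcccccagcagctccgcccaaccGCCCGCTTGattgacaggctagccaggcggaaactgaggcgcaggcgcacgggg
Zfp566: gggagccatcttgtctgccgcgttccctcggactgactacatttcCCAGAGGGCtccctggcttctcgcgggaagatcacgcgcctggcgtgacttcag
Zfp408: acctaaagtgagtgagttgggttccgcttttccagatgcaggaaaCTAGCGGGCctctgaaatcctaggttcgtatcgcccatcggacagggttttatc
The same letters stood before a member with higher means and a member with lower means in the CTCF-KD cultures.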

How the data were processed

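Single-cell RNA-seq of EL4 cells was available as a single table of TPM per gene and cell. Per the labels and the study's methods, the authors aligned the reads with STAR to GRCm38, allowed unique matches only, used HTSeq for counting and deposited the values as TPM; whether counting used strand is not given in the sources used here, and overlapping genes are uncertain. Captures were made on the Fluidigm C1 with SMARTer chemistry, without molecular identifiers, and no doublet caller was run. Cells with fewer than 3000 genes were left out, which removed 1 cell with 81 genes. The steps of the TPM values gave whole reads for 100% of 504605 values above 0 (within 0.001 of a whole number; 1336 genes have a value in 1 cell only and fit by construction), and these reads gave depth and thinning; cells kept had between 41591 and 405404 reads.

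The members, the role lists and the tests were chosen with earlier results of these data known. The culture is the replicate. Expression was tested with limma 3.58.1 (R 4.3.3, trend, two-sided) on log2(mean TPM + 1), over genes for which 2 or more cells exceeded 1 on the log2(TPM + 1) scale, with Benjamini-Hochberg adjustment. Detection was tested by limma on arcsine square root shares, and variation by the CV rule and by limma on culture CVs. Same-numbered cultures belong to the same experiment according to the methods, which pairs them; their deviations from the condition means had a correlation of 0.18 across genes and 0.13 across members. Named were the 8 members with the highest mean, the 5 with the highest and lowest limma statistics, up to 6 against the members' median, up to 4 each way called by the CV rule in both experiments, the 4 largest detection differences each way, and the role lists; the other genes named were chosen after their values were seen. The experiment comparison and the level among cells with reads were added after seeing the data. Finger patterns (2 to 4 residues between cysteines, 12 to the first histidine, 3 to 5 between histidines) and the KRAB pattern were counted in translated GENCODE M21 coding sequences, a strict pattern that can miss domains; Zfp607 could not be placed there. The limma fit of expression, the CV rule and the recovery of whole reads were tested on simulated data, and the other steps were not. Alternatives changed the scale, pseudocount, filters, detection limit, depth, CV measure, block and cultures used.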

Additional observations from a re-analysis of the deposited data

Results flagged for a closer look

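Opposite directions in the 2 experiments were common. The same sign in both was found for 113 members, or 52.1%, against 56.8% of all genes. Examples follow, and the difference between the experiments was not tested for any of them. The median log2 difference of the members, CTCF-KD minus WT, was 0.11 in experiment 1 and -0.24 in experiment 2. For Zfp335, a factor needed in T cell development, it was -1.29 in experiment 1 and 1.20 in experiment 2, with shLuc #1 the highest culture and shLuc #2 the lowest. For Zfp568, a KRAB repressor of a placental Igf2 transcript, it was 2.44 in experiment 1, where shLuc #1 had no reads in any cell, and -1.73 in experiment 2.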

How the results depend on the processing

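Under 13 other settings, no member passed an adjusted p of 0.05 for expression with limma, except that 4 were higher when per-cell log values were averaged and fitted with the replicate block, a setting chosen after seeing the data. These included Zfp566 at a log2 difference of 1.85 (adjusted p = 0.025), Zfp637 at 2.38 (0.024) and Zfp639 at 2.12 (0.042). On this scale the median log2 difference was 0.24 for the members and 0.23 for all genes. The share of all genes passing is not given for the other settings of this paragraph, so the counts of members are not set against it. The 11 members with the lowest statistics or against the members' median kept the sign of their log2 difference in all 143 fits. They had been picked as extreme, and their conditions did not overlap. The sign could therefore not change with the pseudocount, a filter on low values, the block or a culture left out. At an unadjusted p the 8 higher members became 20 on averaged per-cell log values and 25 with the block added, and between 1 (without shCTCF #2) and 7 when a culture was left out; the 5 lower members became 8 with the replicate block and between 0 (without shCTCF #2) and 10 (without shLuc #1). A fit that leaves 1 culture in a condition assumes that it varies like the others.

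The median log2 difference of the members, -0.12, turned to 0.24 on averaged per-cell log values, with or without the block, to 0.11 in experiment 1 alone and to 0.015 over every numbered Zfp gene with a value above 0, and ran from -0.44 (without shLuc #1) to 0.33 (without shLuc #2). The median detection difference of 7.79 percentage points was 3.99 with detection at TPM above 10, 6.70 in thinned cells and 6.64 in cells with at least 4000 genes, and ran from 5.53 to 10.1 without a culture; the blocked value is the same by construction. Members not overlapping ran from 100 to 136 higher and from 22 to 43 lower when a culture was left out, a looser condition. Over all genes the share ran from 47.8% to 63.1% higher and from 8.72% to 18.8% lower. The 136 members (without shCTCF #2) were 62.7%, against 63.1% of genes, and the 43 (without shCTCF #1) were 19.8%, against 18.8%.

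The CV rule gave 19 increased and 9 decreased of 133 members on the SD of log2(TPM + 1), against 13.4% and 13.2% of all genes. With means above 2 it gave 6 and 6 of 57 members, against 10.3% and 13.6%. On the CV of linear TPM 36 of 133 decreased, against 11.8%. It gave 20 increased of 133 both with the expected CV subtracted, against 8.59%, and with a pseudocount of 10, against 13%. The median CV difference was -0.33 in experiment 1 alone, -0.60 for linear TPM, -0.12 for the SD, -0.16 with means above 2, -0.0086 with the expected CV subtracted and -0.036 with a pseudocount of 10, and ran from -0.30 to -0.19 without a culture. The replicate block raised the members with a lower CV in limma from 1 to 11.

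Between experiments, the 28 members higher and 2 lower at an unadjusted p were 15 and 7 on averaged per-cell log values, and ran from 9 to 14 and from 0 to 4 without a culture; the median of 0.57 was 0.11 on that scale and 0.30 with a pseudocount of 10. The cause of these changes was not tested.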
